A study of Mus musculus with 4 samples.

Results

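Interleukin-10 (Il10), the ligand-binding receptor chain Il10ra and the shared receptor chain Il10rb were described across the cells of aged mouse gonadal white adipose tissue. These are 3 genes of 31054 features in the deposited matrices, found by their exact symbols. The 3 genes were chosen after a difference in Il10 between these libraries was known, so their levels are given as a description. Il10 lies on chromosome 1 of mm10, from 131019845 to 131024974 on the plus strand, with 5 exons in its single annotated transcript. Il10ra lies on chromosome 9 from 45253837 to 45269149 on the minus strand, and Il10rb on chromosome 16 from 91406164 to 91425834 on the plus strand.

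Interleukin-10 is an anti-inflammatory cytokine made mainly by myeloid and lymphoid cells, among them macrophages, regulatory T cells, B-1 cells and plasma cells. It binds a receptor built from IL-10RA, which is largely restricted to blood-derived cells, and IL-10RB, which is widely made and also serves IL-22 and type III interferons. The receptor signals through the kinases JAK1 and TYK2 to STAT3, which raises SOCS3 and lowers inflammatory cytokines in macrophages. In adipose tissue the cytokine has been studied mostly as a product of resident macrophages.

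The study compared cells in which the p16 gene had been active with cells in which it had not. All libraries came from male p16-CreERT2/R26-LSL-tdTomato mice aged 18 months, in which tamoxifen lets a Cre recombinase driven by p16 switch on tdTomato for good. Mice received daily tamoxifen injections and were sacrificed 2 weeks later, the stromal vascular fraction of the gonadal fat was freed with Liberase, and cells were sorted by CD45 and by tdTomato (Tom). There were 4 groups with 1 library each, and values below are given in a fixed order: CD45- Tom+ first, then CD45- Tom-, then CD45+ Tom+, and CD45+ Tom- last. The extraction protocol names CD45- Tom- 2 times and CD45+ Tom- not at all, so the group of the last library rests on its group and title labels. Neither how many mice were pooled in a library nor any untreated or Cre-free control was given in the sources used here. With 1 library in a group no test of a condition could be made, and every interval below is an exact 95% interval that covers counting error only.

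After the study's filters and removal of likely doublets, 3886, 3674, 1927 and 4391 cells were kept, 13878 in all, with a median of 18331 to 19516 unique molecular identifiers (UMIs) per cell in each library. tdTomato followed its label, at 713, 15.8, 714 and 18.7 counts per 1000000 UMIs (CPM). Cdkn2a, the gene that encodes p16, was at 6.78, 7.10, 7.30 and 7.57 CPM. Ptprc, which encodes CD45, was at 217, 157, 223 and 188 CPM, and leukocytes and stromal cells were both present under each CD45 label. The CD45 label therefore only names a library here, and it did not separate leukocytes from the rest. Between 26 and 4394 barcodes were shared by a pair of deposited libraries, with a median depth ratio of at least 15.1 between the deeper and the shallower copy, and 80 of the kept cells carried a barcode that another library's kept cells also carried.

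Cells were grouped into 30 clusters, of which 25 could be named from marker genes and merged into 14 classes. No annotation of cells was used from the authors, so every name carries "-like" and a difference from the study's own cell types may come from this renaming. Levels are given for classes with at least 50 cells in a library, and smaller groups are given as counts. Shares of cells with a UMI depend on depth, so they were also computed after thinning each cell to 2000 UMIs.

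Of 13878 cells, 3115 (22.4%) held an Il10 UMI, 3601 (25.9%) an Il10ra UMI and 8022 (57.8%) an Il10rb UMI. Il10 was the member that followed the Tom label. Over all cells it was at 115 CPM (95% interval 113 to 117), 11.6 (10.9 to 12.4), 107 (104 to 110) and 12.5 (11.8 to 13.2). Both Tom+ libraries were high and both Tom- libraries low, a ratio of 9.86-fold between the libraries labelled CD45- (log2 3.30, 3.20 to 3.40) and of 8.59-fold between those labelled CD45+ (log2 3.10, 3.01 to 3.20). The share of cells with an Il10 UMI was 45.2%, 6.80%, 40.8% and 7.31%. At 2000 UMIs per cell, which left out 13, 21, 0 and 26 shallower cells, it was 13.2%, 1.75%, 11.7% and 1.72%.

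Neither receptor chain showed a difference of that size. Il10ra was at 25.1, 22.2, 25.1 and 23.5 CPM over all cells, with log2 ratios of Tom+ over Tom- of 0.18 (0.09 to 0.27) and 0.09 (-0.01 to 0.20). Il10rb was at 69.9, 61.9, 64.6 and 63.9 CPM, with log2 ratios of 0.18 (0.12 to 0.23) and 0.02 (-0.05 to 0.08).

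**Figure D1:**
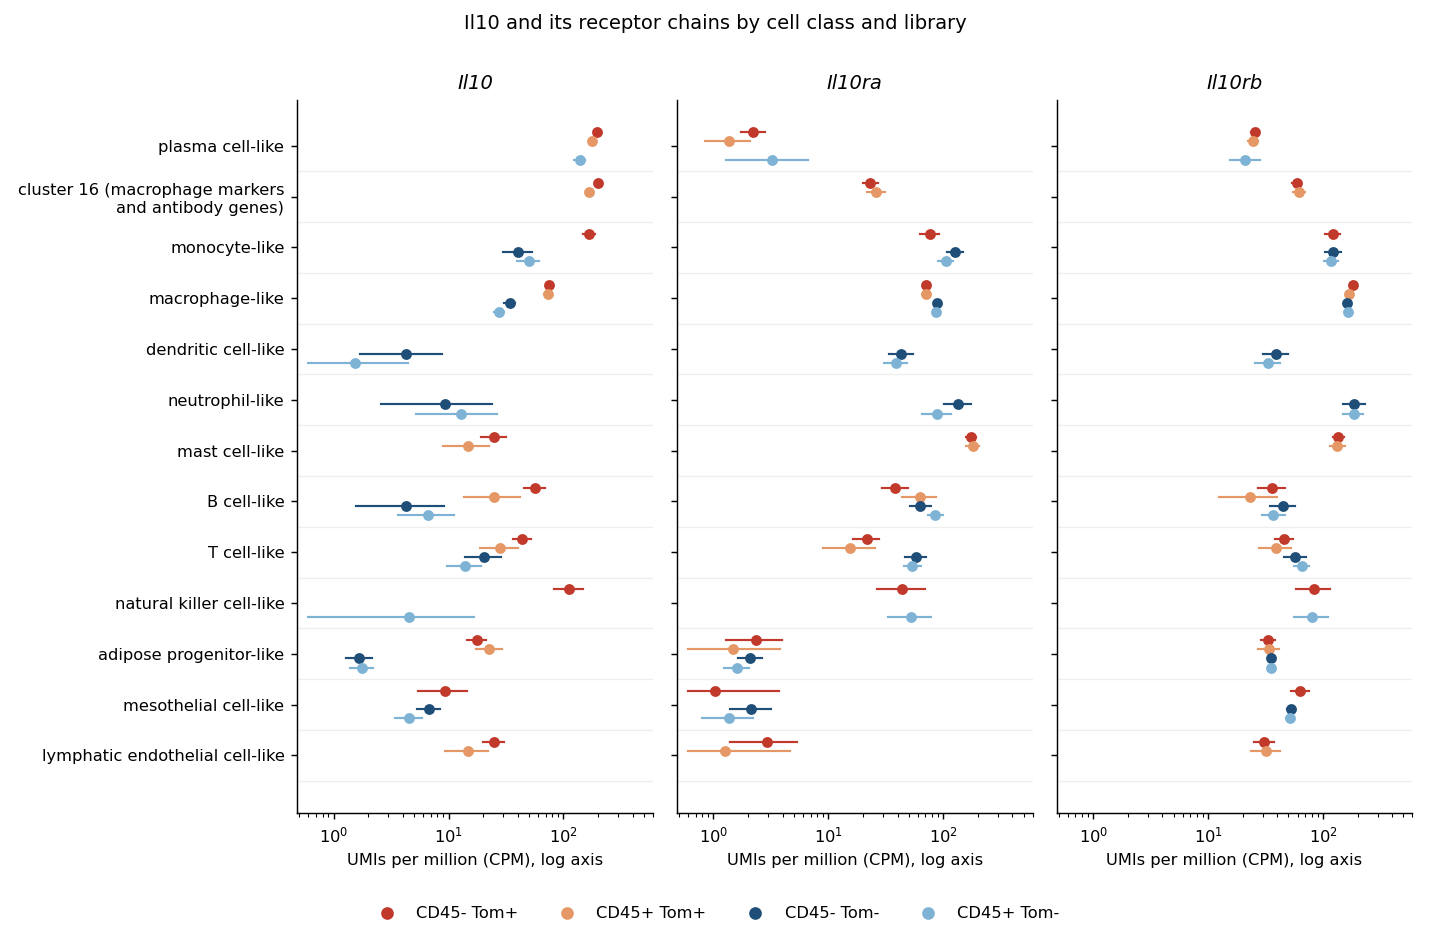
CPM of Il10, Il10ra and Il10rb (log axes) in 12 named classes and cluster 16, 1 point per library with at least 50 cells, with its exact 95% counting interval. Il10 stands high in plasma cell-like cells, at 138 to 196 CPM, while Il10ra there stays at 1.36 to 3.21 CPM; Il10ra is highest in mast cell-like and Il10rb in macrophage-like and neutrophil-like cells.

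Plasma cell-like cells, the antibody-secreting end stage of the B lineage, held more of the Il10 than any other class of the Tom+ libraries. They were 825, 39, 425 and 58 cells, which is 21.2%, 1.06%, 22.1% and 1.32% of the kept cells. They carried 54.5% (53.6 to 55.5), 23.0% (20.3 to 26), 56.3% (54.9 to 57.7) and 26.5% (23.9 to 29.1) of each library's Il10 UMIs. The share of Il10 in plasma cell-like cells was thus larger in the Tom+ libraries, where these cells were also more numerous. When every cell weighed the same it was 48.0%, 11.1%, 48.3% and 14.9%. In the Tom- libraries macrophage-like cells held the largest share, 43.3% and 36.2% of Il10 UMIs, against 12.7% and 12.2% in the Tom+ libraries.

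**Figure D2:**
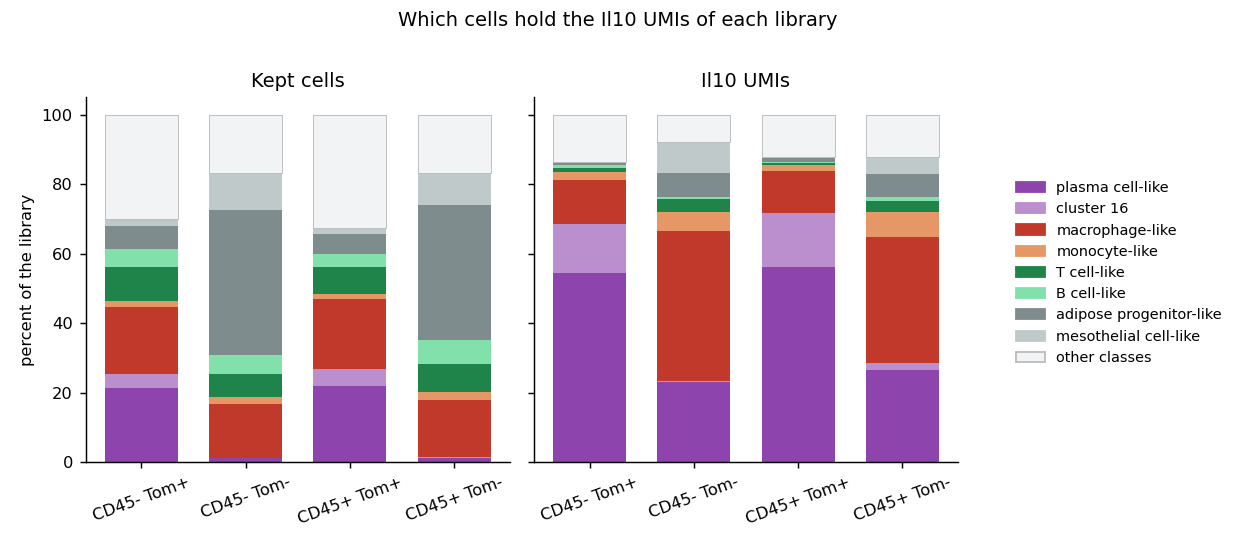
Stacked bars of the percent of each library's kept cells (left) and of its Il10 UMIs (right) in each class. Plasma cell-like cells hold 54.5% and 56.3% of Il10 UMIs in the Tom+ libraries and 23.0% and 26.5% in the Tom- libraries; macrophage-like cells hold 43.3% and 36.2% in the latter.

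Per cell the plasma class differed less between libraries than the totals did. Il10 was at 196 CPM (191 to 201) in CD45- Tom+, 178 (171 to 184) in CD45+ Tom+ and 138 (123 to 155) in CD45+ Tom-, and CD45- Tom- held 200 Il10 UMIs in 24 of its 39 cells. The ratio between the libraries labelled CD45+ was 1.29-fold (log2 0.36, 0.19 to 0.54). The share of plasma cell-like cells with an Il10 UMI was 79.8%, 74.6% and 53.4% in the same 3 libraries, and 26.2%, 25.9% and 15.5% at 2000 UMIs. For adipose progenitor-like cells, a mesenchymal class not known to make Il10, the thinned share was 3.05%, 1.85% and 0.526% in those libraries. Median depth was 38797, 39400 and 39394 UMIs in the plasma class and 21503, 22066 and 23475 in the progenitor class.

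Il10 was spread unevenly among plasma cell-like cells. The median cell held 3 Il10 UMIs in CD45- Tom+, 3 in CD45+ Tom+ and 1 in CD45+ Tom-, the 90th percentile lay at 20, 20 and 17.1, and the highest cell held 98, 85 and 40. In CD45- Tom- the highest of the 39 cells held 52. Cells with 10 or more Il10 UMIs were 24.0% of the class in CD45- Tom+, 23.5% in CD45+ Tom+ and 17.2% in CD45+ Tom-, and 7 of the 39 cells in CD45- Tom-. The 3 libraries with a level thus had 90th percentiles near each other, and the median was lowest in CD45+ Tom-.

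**Figure D3:**
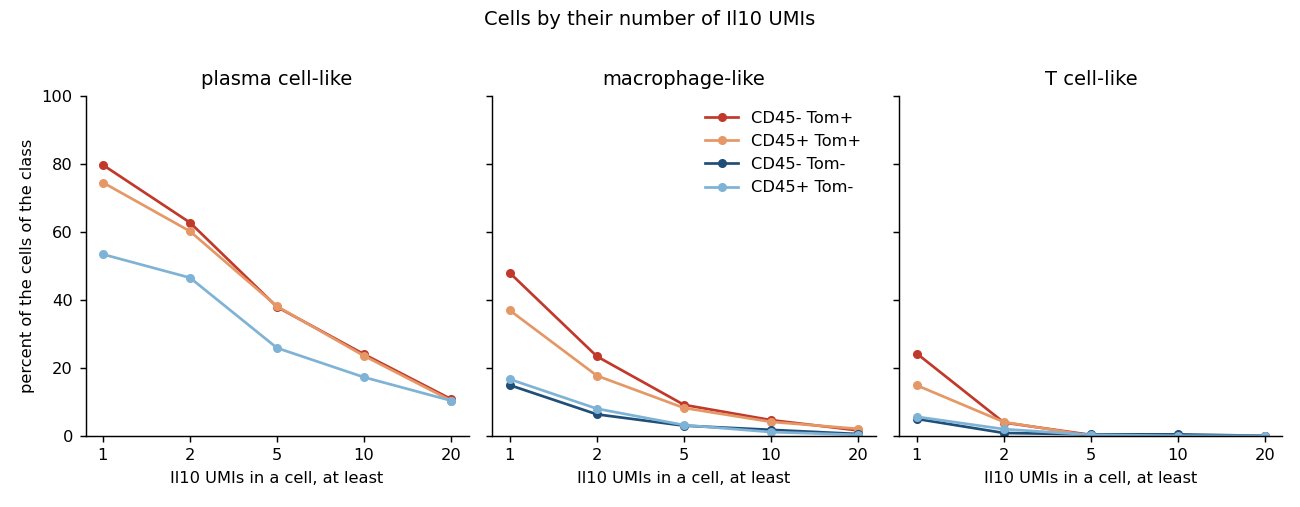
Percent of plasma cell-like, macrophage-like and T cell-like cells (vertical axis) with at least 1, 2, 5, 10 or 20 Il10 UMIs (horizontal axis, steps evenly spaced), 1 line per library with at least 50 cells of the class. In plasma cell-like cells 24.0%, 23.5% and 17.2% of cells reach 10 UMIs in CD45- Tom+, CD45+ Tom+ and CD45+ Tom-.

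Plasma cell-like cells were nearly all of the IgM kind, and most used the same variable gene. Ighm, the constant gene of IgM, was the highest heavy chain constant gene in 820 of 825, 39 of 39, 422 of 425 and 58 of 58 cells. The variable gene Ighv11-2 was the highest in 639, 24, 340 and 39 of them, and those cells held 4808, 155, 2411 and 287 Il10 UMIs. That was 7.52, 6.46, 7.09 and 7.36 Il10 UMIs for each Ighv11-2 cell, with no excess in the Tom+ library of the pair labelled CD45+, and the Tom- values rest on 24 and 39 cells. Cells whose highest variable gene was Ighv4-1 occurred only in the Tom+ libraries among the kept cells, as 41 cells with 577 Il10 UMIs and 19 cells with 242. Their median depth, 39029 and 43054 UMIs, was near that of the Ighv11-2 cells, 41087 and 41292. In the Tom- libraries, cells led by a variable gene other than Ighv11-2 held 25 Il10 UMIs in 10 cells and 15 in 15 cells. Near-identical variable genes can share reads, so these assignments are uncertain.

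Macrophage-like cells also held more Il10 under the Tom+ labels. Il10 was at 75.4 CPM (71.5 to 79.5), 33.9 (30.6 to 37.5), 72.7 (67.1 to 78.7) and 27.6 (25 to 30.4) in 757, 570, 390 and 727 cells. Both Tom+ libraries lay above both Tom- libraries, by 2.22-fold in the pair labelled CD45- (log2 1.15, 0.99 to 1.32) and 2.64-fold in the pair labelled CD45+ (log2 1.40, 1.22 to 1.58). The share of macrophage-like cells with an Il10 UMI was 48.0%, 14.9%, 36.9% and 16.6%, and 13.7%, 4.21%, 7.44% and 3.72% at 2000 UMIs. With summed counts of the thinned cells the log2 ratio in the pair labelled CD45- was 1.98. A few cells held much of it: the top 2% of macrophage-like cells, 15, 11, 8 and 15 cells, held 34.2%, 62.8%, 36.8% and 50.8% of the class's Il10 UMIs. Cells with 5 or more Il10 UMIs made up 9.11%, 2.98%, 8.21% and 3.16%.

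The macrophage-like class was made of 4 clusters, which filled it in different proportions in each library. Each of the 4 raised 8 of 8 macrophage markers. The leading genes of cluster 6, which was 131, 293, 69 and 372 cells, held a monocyte marker (Chil3) and no macrophage marker. Those of cluster 11 held no macrophage marker either, so the clusters are also given by number. In cluster 3, whose leading genes included Gpnmb and Mmp12, Il10 was at 78.1, 42.5, 63.6 and 43.9 CPM. In cluster 11, led by Arg1, Cd5l and Marco, it was at 90.1, 24.6, 43.0 and 37.3 CPM. In cluster 6, with Arg1, Il1b and Chil3 among its leading genes, it was at 39.2, 31.0, 83.4 and 10.5 CPM. The ratio of Tom+ over Tom- was thus uneven among clusters and between the pairs: in the pair labelled CD45- it was log2 0.88 (0.64 to 1.12), 1.87 (1.44 to 2.34) and 0.34 (-0.04 to 0.71) for clusters 3, 11 and 6, and in the pair labelled CD45+ it was 0.53 (0.29 to 0.78), 0.21 (-0.24 to 0.64) and 2.99 (2.53 to 3.46). Without cluster 6 the class was at 81.2, 36.5, 71.1 and 41.7 CPM, and its log2 ratios were 1.15 and 0.77. Cluster 26, led by Cd209f, was 24, 0, 22 and 4 cells.

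Regrouping the macrophage-like cells into 9 finer clusters, without antibody genes, showed where Il10 was highest. Cells led by Cd209f, a C-type lectin, and Lyve1, the hyaluronan receptor of perivascular resident macrophages, had 144 CPM, 83.5, 147 and 81.1 in 146, 54, 77 and 80 cells. They were the highest of the finer clusters with a level in both Tom+ libraries, and here the Tom+ libraries were higher by log2 0.79 (0.46 to 1.13) and 0.85 (0.54 to 1.18). The B cell genes Ms4a1 and Ighd were also among the leading genes of these cells, and the part of B cell RNA in their Il10 was not tested. Cells led by Marco and Lyve1, with Timd4 and Vsig4 of long-lived resident macrophages, had 125 and 70.6 CPM in the Tom+ libraries, and 31 Il10 UMIs in 34 cells and 49 in 47 cells in the Tom- libraries.

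The other finer clusters with a level were lower in Il10 in the Tom+ libraries. Lipid-associated macrophage-like cells, led by Mgll and Gpnmb, had 50.3, 29.7, 54.7 and 23.6 CPM, with log2 ratios of 0.76 (0.31 to 1.24) and 1.21 (0.70 to 1.75). Cells led by Cxcl3 and Hp, an inflammatory profile, had 29.3 CPM, 16.2, 40 UMIs in 47 cells, and 8.25 CPM. Cells led by Dcstamp and Cpe had 65.0 CPM in CD45- Tom+, 47.7 in CD45+ Tom+ and 31.0 in CD45+ Tom-, and 28 UMIs in 43 cells in CD45- Tom-. Those led by Marco and Prok2 had 49.9 CPM in CD45- Tom+, 9.51 in CD45- Tom- and 23.9 in CD45+ Tom-. Their log2 ratio in the pair labelled CD45- was 2.39 (1.54 to 3.36). The order was less clear in the Tom- libraries, where cells led by Wnt11 and Plbd1 ranged from 26 to 99.5 CPM and so overlapped the Cd209f cells.

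**Figure D4:**
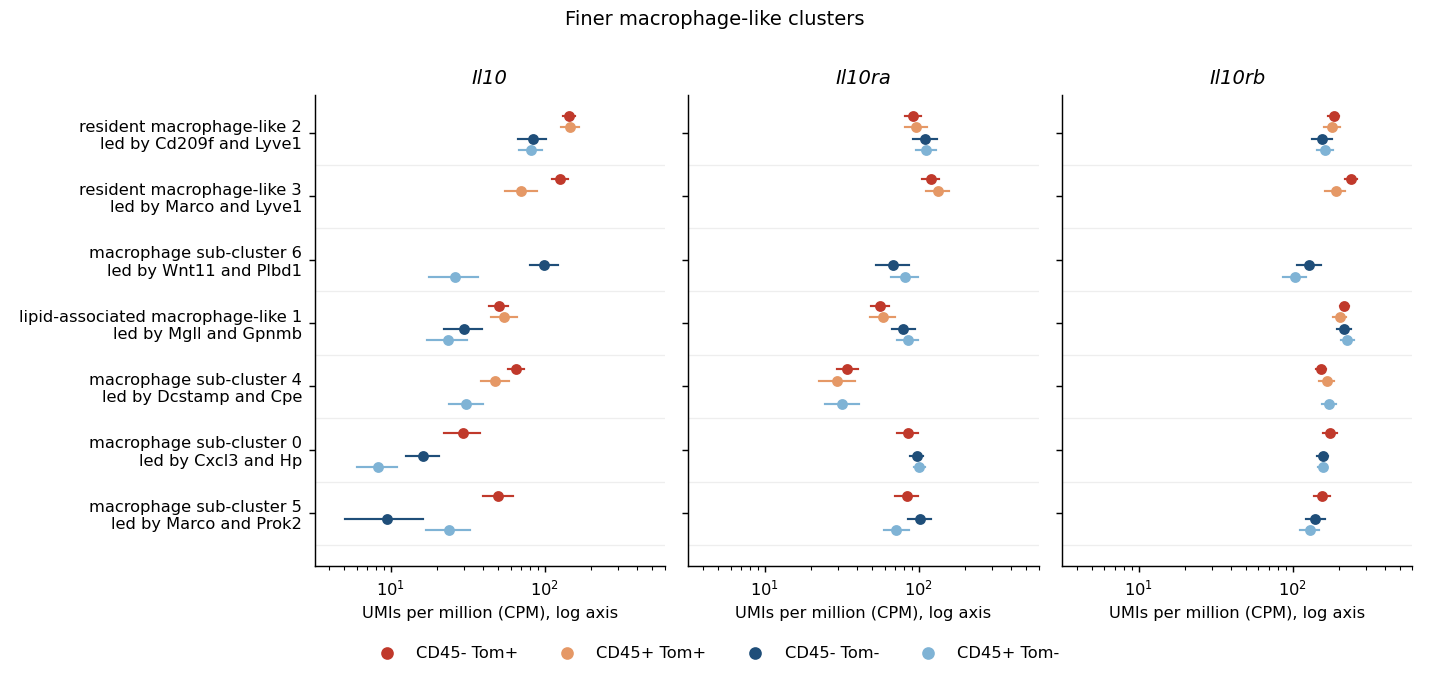
Il10, Il10ra and Il10rb in CPM (log axes) in 7 finer clusters of macrophage-like cells, 1 point per library with at least 50 cells and its exact 95% counting interval. Cells led by Cd209f and Lyve1 hold 144 and 147 CPM of Il10 in the Tom+ libraries and 83.5 and 81.1 in the Tom- libraries, while Il10ra there is 91.6 and 96.4 against 111 and 112.

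Monocyte-like cells, led by Chil3 and Ms4a4c, had 166 CPM of Il10 (147 to 188) in CD45- Tom+, 40.1 (29.7 to 53.1) in CD45- Tom- and 49.7 (39.5 to 61.7) in CD45+ Tom-, and 85 UMIs in 28 cells in CD45+ Tom+. In the Tom- libraries they were the highest class that had a level in both. These values moved with how the class was drawn: over the alternatives they ran from 81.7 to 172 CPM in CD45- Tom+, 26 to 95.1 in CD45- Tom- and 4.57 to 49.7 in CD45+ Tom-. In the pair labelled CD45- the Tom+ library was higher by log2 2.05 (1.61 to 2.52). Cluster 16 held macrophage markers together with antibody genes, and its cells had median depths of 49824 and 55588.5 UMIs in the Tom+ libraries. It was left unnamed, and it held 201 and 167 CPM of Il10, or 13.9% and 15.4% of the Tom+ libraries' Il10 UMIs, against 2 and 6 cells in the Tom- libraries. Cluster 19, led by haemoglobin and cell-cycle genes, held 109 and 107 CPM there. Cluster 22 raised plasma cell markers, with adipose progenitor markers raised nearly as often, at a median depth of 53997 UMIs. It held 110 CPM in CD45- Tom+ and 146 Il10 UMIs in 23 cells in CD45+ Tom+, or 3.56% and 2.86% of the Il10 UMIs. Whether cells of clusters 16, 19 and 22 are doublets that escaped removal was not tested.

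Il10 was also counted in stromal cells of the Tom+ libraries, which are not known as a source of it. Adipose progenitor-like cells had 17.6 CPM (14.4 to 21.3), 1.67 (1.27 to 2.16), 22.5 (17.2 to 28.9) and 1.77 (1.39 to 2.22), and the share with an Il10 UMI was 25.5%, 3.85%, 21.3% and 3.62%. These values are used as the background for the other classes. In CD45+ Tom+, 2 of the 108 progenitor-like cells held 10 or more Il10 UMIs, the highest 23 of the 61, so that background rests largely on few cells. Mast cell-like cells, at 24.8 and 14.7 CPM in the Tom+ libraries, had intervals (19.1 to 31.6 and 8.98 to 22.7) that overlapped this background, and held 1 Il10 UMI in 38 cells and 0 in 46 cells in the Tom- libraries. With doublets kept they were at 63.7 and 66.9 CPM in the Tom+ libraries. Mesothelial-like cells had 9.22, 6.69 and 4.53 CPM in the 3 libraries with a level, with 1.37%, 1.03% and 0.754% of cells at 2000 UMIs.

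Plasma cell genes were higher in the same libraries and classes. Jchain, which joins IgM and IgA chains and is made by plasma cells, was at 1640, 109, 1457 and 93.6 CPM in macrophage-like cells and at 1552, 83.8, 2385 and 81.3 in adipose progenitor-like cells. Of 7 plasma cell markers, 7 had a UMI in macrophage-like cells of each library, and their summed level was 2034, 287, 1792 and 258 CPM there, against 29086 to 33809 CPM in the plasma class. Sdc1 was the marker that was lower in the Tom+ libraries, at 68.9, 88.7, 58.3 and 85.6 CPM. Summed levels were 5170, 404, 3890 and 292 CPM in T cell-like, 7286, 802, 4375 and 768 in B cell-like and 2081, 394, 2928 and 380 in progenitor-like cells.

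The number of Il10 UMIs per 1000 Jchain UMIs differed between classes. In plasma cell-like cells it was 7.28, 6.29, 6.18 and 5.98, of which the CD45- Tom- value rests on 39 cells. In the Tom+ libraries it was 9.46 and 9.34 in cluster 16, 10.2 and 8.73 in mast cell-like cells and 11.3 and 9.43 in adipose progenitor-like cells. That is 1.30 and 1.51, 1.40 and 1.41, and 1.56 and 1.53 times the plasma ratio of the same library. Of these ratios, only that of mast cell-like cells in CD45+ Tom+ had an interval that included the plasma ratio. The unnamed cluster 8 was at 14.3 and 8.0 there, and lymphatic endothelial cell-like cells at 12.8 and 10.2. Progenitor-like cells of the Tom- libraries were at 19.97 and 21.8. In macrophage-like cells it was 46.0, 310, 49.9 and 295, which is 6.31, 49.3, 8.08 and 49.2 times the plasma ratio of the same library. Values well above the plasma ratio were not confined to macrophage-like cells. Mesothelial-like cells were at 97.9 and 73.6 and cluster 8 at 64.0 and 36.6 in the Tom- libraries. Monocyte-like cells were at 32.1 in CD45- Tom+ and at 266 and 225 in the Tom- libraries. Had all Jchain UMIs in macrophage-like cells brought Il10 at the plasma ratio, 11.9, 0.688, 9.0 and 0.560 CPM of their Il10 would have come with them, and 63.5, 33.2, 63.7 and 27.0 CPM lay above that. This split was chosen after the data were seen and takes the plasma ratio as fixed, and the part of plasma cell RNA in the macrophage values was not tested.

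**Figure D5:**
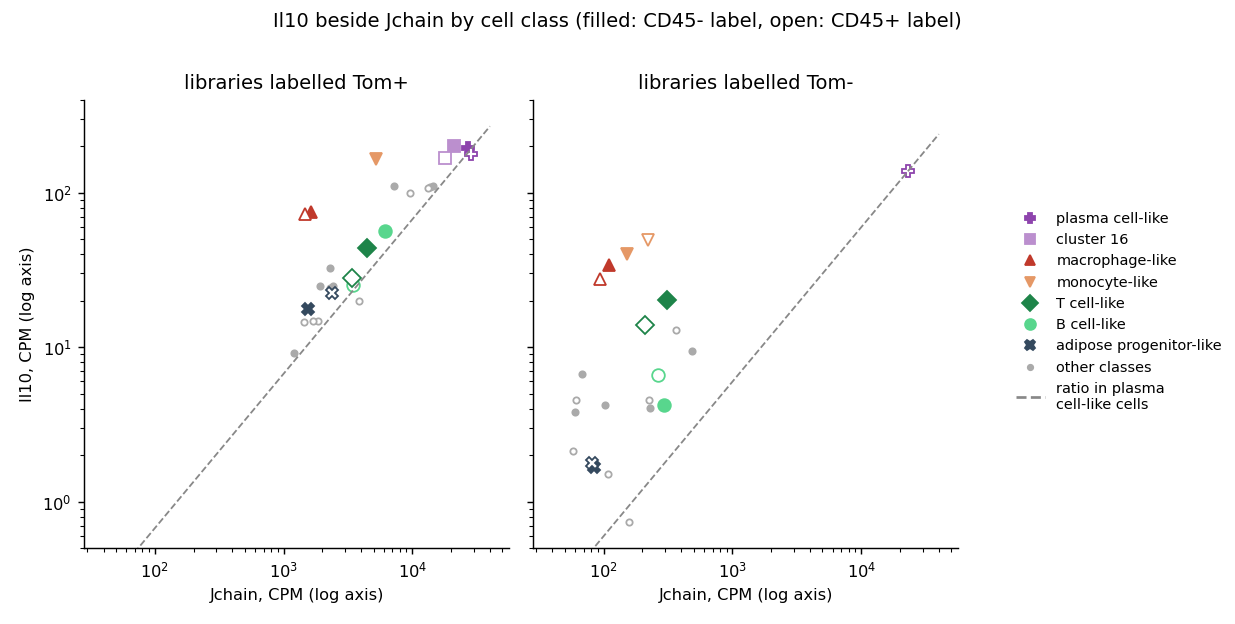
Il10 CPM against Jchain CPM (both log axes), 1 point per class and library with at least 50 cells, Tom+ libraries left and Tom- libraries right, filled for the CD45- and open for the CD45+ label; the dashed line is the mean ratio of the plasma cell-like points shown in that panel. Macrophage-like points have 6.31 to 49.3 times the plasma ratio of their library. Cluster 16, B cell-like and progenitor-like points of the Tom+ libraries have 1.18 to 1.56 times that ratio.

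B cell-like cells had 56.3 CPM of Il10 (45.5 to 68.9), 4.22 (1.55 to 9.19), 25.1 (13.7 to 42.1) and 6.65 (3.63 to 11.2), from 94, 6, 14 and 14 UMIs. Different finer clusters filled this class: cells led by Ccl8 and Slpi, with the mast cell genes Cma1 and Tpsb2 and the macrophage gene Pf4 among their leading genes, were 125, 4, 42 and 3 cells, and cells led by Il4i1 and Fstl1 were 15, 163, 13 and 242. The part of this make-up in the values was not tested. The Tom+ libraries were higher by log2 3.74 (2.56 to 5.22) and 1.92 (0.74 to 3.09), and the CD45+ Tom+ interval overlapped the progenitor background of 22.5 CPM. That background rests largely on few cells. Jchain in CD45+ Tom+ was at 3445 CPM in B cell-like and 2385 in progenitor-like cells. The source of this difference in Jchain was not tested. Il10 per 1000 Jchain was 9.17 and 7.28 in the Tom+ libraries, 1.26 and 1.18 times the plasma ratio, and 14.5 and 25.4 in the Tom- libraries. B-1-like cells, an innate-like subset named by Zbtb32, Bhlhe41, Spn and Plscr1, had 67.0 CPM in CD45- Tom+ and 14.2 in CD45+ Tom-, and 2 UMIs in 41 cells and 5 in 17 cells in the other libraries.

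T cell-like cells had 43.9 CPM of Il10 (36.4 to 52.4), 20.3 (13.8 to 28.8), 28.2 (18.9 to 40.5) and 13.9 (9.71 to 19.2). The Tom+ libraries were higher by log2 1.11 (0.53 to 1.73) and 1.03 (0.27 to 1.77). Different clusters filled this class: gamma-delta T cells of cluster 12, led by Trdc and Il17a, were 260, 57, 93 and 90 cells, and cluster 9, led by Cd8b1 and Ccl5, was 124, 184, 55 and 267 cells. Il10 per 1000 Jchain was 9.85 and 8.36 in the Tom+ libraries and 65.5 and 66.3 in the Tom- libraries, so only the Tom- values lay far from the plasma ratio. In CD45- Tom-, 1 T cell-like cell held 19 of the class's 31 Il10 UMIs. The level of 20.3 CPM, the log2 of 1.11 and the 65.5 rest largely on that cell. With doublets kept, T cell-like levels were 107, 32.4, 71.6 and 41.0 CPM.

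Regulatory T cells, defined by the transcription factor Foxp3, are a known source of Il10 in fat and were few here. Cells with a Foxp3 UMI were 6, 12, 1 and 19 and held 5, 22, 0 and 9 Il10 UMIs, of which the highest single cell held 4, 19, 0 and 4. Lymphocytes without a Foxp3 UMI held 165 Il10 UMIs in 434 cells, 10 in 267, 34 in 170 and 29 in 396, or 52.0, 6.04, 29.1 and 9.92 CPM. A regulatory T cell-like finer cluster of 4, 12, 1 and 22 cells held 5, 20, 0 and 10 Il10 UMIs. In CD45- Tom- more of the lymphocytes' Il10 UMIs lay in cells with Foxp3 than in the far more numerous cells without it, and 19 of them came from 1 cell. Natural killer cell-like cells had 111 CPM in CD45- Tom+, of whose 48 UMIs a single cell held 38, and 4.56 CPM, or 2 UMIs, in CD45+ Tom-.

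Among classes with a level in both Tom+ libraries, ordered by Il10, plasma cell-like cells and cluster 16 came first and their ranges over the libraries overlapped, then cluster 19, then macrophage-like cells. B cell-like and T cell-like cells followed and overlapped each other, and progenitor-like, mast cell-like and lymphatic endothelial cell-like cells came below them and overlapped among themselves. The unnamed cluster 8, at 14.8 and 32.6 CPM, overlapped both sets. Classes with a level in only 1 of the Tom+ libraries, such as monocyte-like cells at 166 CPM and natural killer cell-like cells at 111, are not in this order. In the Tom- libraries the order was monocyte-like, macrophage-like, T cell-like and neutrophil-like cells. None of these overlapped the next in its range over the libraries. Counting intervals were not part of this order, and the neutrophil-like values rest on 4 and 7 Il10 UMIs. Mesothelial-like and B cell-like cells overlapped each other below these classes, and the monocyte-like place held only as far as its class did. The plasma class had a level in only 1 Tom- library, 138 CPM, above all those classes.

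Il10ra, the chain that sets which cells can answer interleukin-10, was found in leukocytes and not in plasma cells. Mast cell-like cells were highest in the Tom+ libraries, at 174 CPM (159 to 191) and 181 (159 to 205), with a UMI in 58.6% and 58.1% of cells at a median depth of 6274.5 and 6753 UMIs. In the Tom- libraries they held 54 Il10ra UMIs in 38 cells and 74 in 46 cells. With doublets kept the Tom+ levels were 109 and 116 CPM. Plasma cell-like cells were at 2.23 CPM, 1.36 and 3.21 in the 3 libraries with a level and held 4 UMIs in 39 cells in CD45- Tom-. Adipose progenitor-like cells, the background class, were at 2.34, 2.10, 1.48 and 1.60 CPM, so Il10ra in plasma cell-like cells did not stand above background.

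Macrophage-like cells had 70.2 CPM of Il10ra (66.4 to 74.1), 88.9 (83.4 to 94.6), 70.4 (64.9 to 76.2) and 86.4 (81.8 to 91.3). The Tom+ libraries were lower in both pairs, by log2 -0.34 (-0.46 to -0.22) and -0.30 (-0.44 to -0.16), which is the opposite direction to Il10 in the same cells. Without cluster 6 the ratios were -0.34 and -0.15. In cluster 3 they were -0.46 (-0.66 to -0.25) and -0.37 (-0.60 to -0.15), and in cluster 11, where both intervals spanned 0, they were -0.05 (-0.29 to 0.19) and 0.14 (-0.15 to 0.42). The share with an Il10ra UMI was 70.7%, 72.1%, 70.3% and 73.6%, and 13.9%, 18.2%, 14.1% and 18.6% at 2000 UMIs. Within the class, cells led by Marco and Lyve1 were highest in the Tom+ libraries, at 120 and 133 CPM, and cells led by Dcstamp and Cpe were lowest, at 34.5 and 29.6. The Cd209f cells had 91.6, 111, 96.4 and 112 CPM, and lipid-associated macrophage-like cells 55.9, 79.6, 58.4 and 84.6.

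Monocyte-like cells had 76.1 CPM of Il10ra in CD45- Tom+, 126 in CD45- Tom- and 105 in CD45+ Tom-. The Tom+ library of the CD45- pair was lower by a log2 ratio of -0.73 (-1.09 to -0.37). Neutrophil-like cells had 134 and 88.5 CPM in the Tom- libraries. At the top of the Tom- order neutrophil-like cells overlapped both monocyte-like and macrophage-like cells, which did not overlap each other, and dendritic cell-like cells, which present antigen, were lower at 42.8 and 38.5 CPM. Cluster 16 had 23.2 and 26.2 CPM in the Tom+ libraries, which lay between the macrophage-like and the plasma cell-like levels.

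Among lymphocytes, B cell-like cells had 38.3, 63.4, 62.7 and 85.5 CPM of Il10ra, with log2 ratios of Tom+ over Tom- of -0.73 (-1.21 to -0.25) and -0.45 (-1.01 to 0.08), beside the unequal make-up of the class given with its Il10. T cell-like cells had 21.6, 57.6, 15.6 and 53.9 CPM, with ratios of -1.42 (-1.91 to -0.93) and -1.79 (-2.64 to -1.04). The lower T cell level in the Tom+ libraries went with another make-up of the class, whose part was not tested, and with doublets kept it was 40.3 and 43.7 CPM there. CD8 T cell-like cells led by Esm1 and Gzmk had 112 and 98.3 CPM in the Tom- libraries and 28 UMIs in 49 cells and 11 in 27 cells in the Tom+ libraries. The largest gamma-delta T cell-like finer cluster had 6 Il10ra UMIs in 132 cells in CD45- Tom+, or 5.85 CPM, and 0 in 39 cells in CD45+ Tom+. Another gamma-delta cluster had 0 in 62 and 0 in 24 cells of the same libraries.

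Il10rb was found in every class, with its highest levels in myeloid cells. Macrophage-like cells had 184 CPM (178 to 190), 162 (155 to 170), 168 (159 to 177) and 163 (157 to 170), with a UMI in 93.9%, 86.3%, 86.4% and 88.4% of cells. The log2 ratios of Tom+ over Tom- were 0.18 (0.10 to 0.26) and 0.04 (-0.06 to 0.13), far below those of Il10 in these cells. Neutrophil-like cells had 188 and 184 CPM in the Tom- libraries, mast cell-like cells 136 and 133 in the Tom+ libraries, and monocyte-like cells 121, 122 and 118 in the 3 libraries with a level.

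Stromal classes and plasma cells had Il10rb without much Il10ra. Progenitor-like cells had 33.3, 34.9, 33.6 and 35.1 CPM of Il10rb, with intervals that all overlapped. Mesothelial-like cells had 63.0, 52.7 and 51.3 CPM and plasma cell-like cells 25.5, 24.5 and 21.1 CPM in the libraries with a level. T cell-like cells had 46.0, 57.6, 38.9 and 65.1 CPM and B cell-like cells 35.9, 45.1, 23.3 and 37.0. Among finer macrophage clusters, the lipid-associated cells, low in Il10, were at 216, 214, 202 and 227 CPM.

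Il10ra encodes the ligand-binding chain, and both chains are needed to answer interleukin-10. At 2000 UMIs per cell, a UMI of each chain was found together in 5.56% and 5.81% of mast cell-like cells of the Tom+ libraries, in 4.10%, 6.14%, 3.85% and 5.10% of macrophage-like cells and in 7.06% and 6.50% of neutrophil-like cells of the Tom- libraries. In plasma cell-like cells the share was 0.121%, 0% and 0%, and in progenitor-like cells 0%, 0%, 0% and 0.0585%. At this depth most cells with both transcripts are missed, so these shares order the classes and do not count receptor-bearing cells. Plasma cell-like cells, highest in the ligand, were thus among the lowest in cells with both receptor chains.

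The other genes of the pathway were compared in macrophage-like cells, the class with both the ligand and the receptor. A gene was counted where its mean over the libraries of a pair was at least 5 CPM, and called where its log2 ratio of Tom+ over Tom- was at least 1 or at most -1. Of all genes at that level, 1.01% were called higher and 1.23% lower in the pair labelled CD45- (8877 genes), and 1.05% and 1.45% in the pair labelled CD45+ (8924 genes). The median of all genes was -0.06 and -0.07.

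Il10 was 1 of 7 ligands of its family to be counted, and was called higher in both pairs, which the choice of the gene fixed. Over all kept cells Il19 had 19 UMIs, Il22 had 9, Il24 and Ifnl2 had 1 each, and Il20 and Ifnl3 had 0. Of the family's receptors, 3 were counted and 0 were called in either pair. Of the signalling genes, 7 were counted and 0 called in either pair, with list medians of -0.08 and -0.08, near the median of all genes. Jak1, the kinase bound to IL-10RA, was at 164, 171, 171 and 175 CPM, Stat3, the factor it activates, at 122, 136, 126 and 142, and Socs3, a STAT3 target that limits signalling, at 114, 121, 101 and 110. The Tom+ library was the lower of each pair for all 3 genes, by far less than the called size.

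Of 12 counted regulators of Il10 transcription, 1 was called higher in the pair labelled CD45- and 0 in the pair labelled CD45+, with list medians of -0.21 and -0.25. The called gene was Irf4, a factor of plasma cells and of alternatively activated macrophages, at 26.9 against 9.57 CPM (log2 1.49, 1.18 to 1.81), and at 20.5 against 10.3 CPM in the other pair. Irf4 was at 161 to 201 CPM in plasma cell-like cells, and the part of plasma cell RNA in this difference was not tested. Maf, a direct activator of Il10, was at 284 against 196 and 291 against 202 CPM in macrophage-like cells (log2 0.53 and 0.53) and at 4.63 to 12.4 CPM in plasma cell-like cells. Cebpb, a myeloid transcription factor, was at 1048 against 1437 and 1028 against 1533 CPM (log2 -0.46 and -0.58). Log2 ratios were also below 0 in both pairs for Bhlhe40, a repressor of Il10 in T cells (-0.76 and -0.66), and Nfil3 (-0.64 and -0.67). Prdm1, the factor of plasma cell identity that also drives Il10, was at 120 to 125 CPM in plasma cell-like cells.

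Of 14 counted genes that interleukin-10 raises in macrophages, 1 was called higher in both pairs, with list medians of -0.04 and -0.06. It was Cd163, the haemoglobin scavenger receptor of resident macrophages, at 19.4 against 6.59 CPM (log2 1.56) and at 26.3 against 9.48 (log2 1.47). Hmox1, the haem-degrading enzyme, was at 469 against 265 and at 444 against 391 CPM. Ratios above 0 in both pairs were also those of Etv3 (0.38 and 0.48), Fcgr1 (0.31 and 0.10) and Zfp36 (0.26 and 0.05). Other listed genes went the other way in both pairs, among them Nfil3 (-0.64 and -0.67), Il1rn (-0.38 and -0.82) and Msr1 (-0.28 and -0.26). Of the genes that interleukin-10 lowers, 14 and 13 were counted in the 2 pairs, 3 and 2 were called lower and 0 and 1 higher, with medians of -0.04 and 0.10. Il1b, an inflammatory cytokine, was at 125 against 335 and 133 against 377 CPM (log2 -1.43 and -1.5), and Il6, another, at 12.2 against 26.2 and 14.7 against 30.3 (log2 -1.10 and -1.05). Ccr7, the lymph node homing receptor, was called lower in the pair labelled CD45- (log2 -1.5) and had a log2 ratio of -1.64 in the other, where its mean was under 5 CPM. Ccl4, an inflammatory chemokine, was called higher in the pair labelled CD45+, at 343 against 171 CPM (log2 1.01), and was at 315 against 180 CPM (log2 0.81) in the other. Ccl3 stayed just under the called size, at 269 against 141 and 280 against 143 CPM (log2 0.93 and 0.97). Log2 ratios were smaller for Cxcl2 (0.05 and 0.10), Cxcl1 (-0.01 and 0.17) and Tnf (-0.02 and 0.50). Il1b is also among the leading genes of cluster 6, which made up more of the class in the Tom- libraries, and Cd163 leads the finer resident clusters, and the part of this make-up in the values was not tested. The list as a whole did not lie to one side: Il1b and Il6 were lower and Ccl3 and Ccl4 higher in both Tom+ libraries. The genes called in these lists were named after their values were seen.

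Genes whose levels ran most like each member were ranked over 49 points, each 1 class in 1 library, among 10373 genes. For Il10 the 5 highest Pearson correlations were those of Tnfrsf17 (0.86), the survival receptor of plasma cells, Mrpl57 (0.84), Fam214a (0.84), Edem1 (0.84) and Jchain (0.84). For Il10ra they were Lrmp (0.95), Evi2 (0.94), Laptm5 (0.94), Ptpn6 (0.94), a phosphatase of blood cells, and Nfkbid (0.94). For Il10rb they were Atp6v1e1 (0.86), a lysosomal proton pump subunit, Abr (0.85), Lpcat2 (0.83), Pla2g7 (0.83) and Tmem189 (0.82). The points share libraries and cells of shared origin, so these values describe the order of the levels and no more.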

How the data were processed

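UMI counts were deposited as 1 matrix per library, made by the authors with Cell Ranger 3.0.2 on mm10 from 10x 3′ libraries. As in the study, cells needed more than 1000 but fewer than 7000 genes, and less than 8% of UMIs from mitochondria. Doublets were left out by Scrublet score, at 0.8% per 1000 barcodes. Cells were clustered with scanpy 1.11.5 and leidenalg 0.10.2 (2000 variable genes, 30 components, 15 neighbours, resolution 1). A cluster was named where at least 3 markers reached 20 CPM and 4-fold the median over clusters, or 2-fold for finer clusters. Clusters 8, 13, 16, 19 and 22 stayed unnamed because markers of an unrelated class were raised nearly as often. Macrophage-like cells and B cells were clustered again at resolution 0.5, and T cells with innate lymphocytes at resolution 1, without antibody genes. These naming limits and that omission were set after the data were seen. Levels are summed UMIs with Poisson intervals, ratios have conditional exact intervals and shares Clopper-Pearson ones.

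The members and gene lists were chosen with earlier results of these data known. Genes named are the members and their family, and listed genes that were called or were at 20 CPM or more (at most 8 a list). Also named are the 5 genes most like each member by log2(CPM + 1), and genes that lead a cluster. Tested on simulated counts, the ratio step recovered 200 of 200 changed genes among 8870 for macrophage-like cells of the pair labelled CD45-. How far the ratios hold beyond counting error was not tested.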

Additional observations from a re-analysis of the deposited data

How the results depend on the processing

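No ratio turned its direction under the alternatives run except that of Il10rb over all cells and in macrophage-like cells of the pair labelled CD45+, whose ratios lay near 0. Of the values for the comparisons, 47 stayed within their counting interval and 39 left it, and of those for single classes 488 and 132. No value for the comparisons left its interval when cells sharing a barcode were left out or when antibody genes were left out of the clustering. The cause of each shift was not tested.

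The log2 ratio of Il10 over all cells was 3.11 with doublets kept, 3.05 with a looser filter of 500 genes and 20% mitochondrial UMIs, 3.02 thinned and 3.05 with cells weighing the same in the pair labelled CD45-, and 2.90, 2.89 and 2.87 under the last 3 in the pair labelled CD45+. Il10ra was 0.28 and 0.36 thinned and 0.30 with equal weights in the pair labelled CD45+. Il10rb was 0.24 with equal weights in the pair labelled CD45- and -0.25 thinned in the other. In macrophage-like cells Il10 in the pair labelled CD45- was 1.65 with the looser filter, 1.5 at resolution 2, 1.52 with 4000 variable genes, 1.98 thinned, 1.54 with equal weights and 0.93 with the plasma ratio to Jchain taken off, and in the pair labelled CD45+ 1.18 with the looser filter, 1.11 thinned and 0.77 without cluster 6. The percent of Il10 in plasma cell-like cells was 50.5, 16.4, 54.4 and 21.7 with doublets kept, 52.0, 19.8, 54.9 and 22.6 with the looser filter, 48.3, 11.4, 51.6 and 15.3 thinned, 48.0, 11.1, 48.3 and 14.9 with equal weights, and 74.3 and 72.9 in the Tom+ libraries with the plasma ratio taken off.

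No paired analysis was possible because each group has 1 library and the labels give no shared replicate numbers. No replicate could be left out for the same reason. Depth limits the Tom- Il10 values of several classes, such as B cell-like cells with 6 and 14 Il10 UMIs and dendritic cell-like cells with 7 and 3.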

Other observations

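Group 2 innate lymphoid cell-like cells, which answer IL-33 and make type 2 cytokines, were 1, 2, 1 and 12 cells and held 2, 6, 0 and 35 Il10ra UMIs and 0 Il10 UMIs in each library. An unnamed lymphocyte cluster led by Sostdc1 and Gpm6b, with Cd4, Il21 and Tnfrsf4, was 22, 38, 6 and 41 cells and held 21, 3, 3 and 13 Il10 UMIs. Of the family's other receptors, Il20rb, a chain for IL-19, IL-20 and IL-24, had 1719 UMIs over all kept cells, Ifnlr1, the type III interferon chain, 184, Il22ra2, a soluble receptor of IL-22, 44, Il20ra 21 and Il22ra1 20.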
